A study of Homo sapiens with 3 samples.

Results

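The genes described here encode proteins of the specific and gelatinase granules of neutrophils, together with a pair of alpha defensins. They were chosen by symbol as 10 genes (MMP9, MMP8, CAMP, DEFA3, DEFA4, HP, PGLYRP1, CHI3L1, TCN1 and QSOX1), and each had its own row among the 57773 Ensembl gene IDs of the count table. NB4, a human acute promyelocytic leukaemia line carrying the PML-RARA fusion, had been given a short hairpin RNA (shRNA) and grown in serum-containing RPMI medium. The ARID1B shRNA group comprised 2 libraries of polyadenylated RNA, one with hairpin 2 and one with hairpin 3, and the control shRNA group comprised 1 library with a hairpin that targets no gene. ARID1B binds DNA as part of BAF, a complex that remodels chromatin, and the comparison addressed what its silencing does to this line. Each hairpin was represented by a single library, and the labels do not say whether libraries came from separate infections or cultures.

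Neutrophil granules are filled one kind after another as the cell matures. Promyelocytes make azurophil granules, which carry myeloperoxidase and serine proteases. Myelocytes then make specific granules, which carry antimicrobial and binding proteins, and later cells make gelatinase granules. The transcription factor C/EBP epsilon is needed for the specific granule proteins. NB4 cells are arrested at the promyelocyte stage, before these later granules are made. The alpha defensins are grouped here with the later genes although their proteins are stored in azurophil granules.

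The libraries held 59997475 counts under hairpin 2, 62954803 under hairpin 3 and 61640692 in the control. ARID1B itself stood at 36.7 CPM (counts scaled to library size) under hairpin 2 and 35.8 CPM under hairpin 3, against 84.8 CPM in the control, a log2 fold change of -1.23 ± 0.13 (SE; edgeR quasi-likelihood test, adjusted p = 1.4e-05). The line's identity was checked against 7 promyelocyte markers. MPO, AZU1, CTSG, PRTN3 and CD33 each had over 1000 counts in every library, whereas the elastase gene ELANE had 4, 1 and 10 counts and KIT 6, 6 and 3 (hairpin 2, hairpin 3 and control). Because RNA was measured in bulk, more cells expressing a gene and more of its RNA per cell cannot be told apart.

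With ARID1B silenced, 4 of the 10 granule genes rose and none fell. These were the gelatinase gene MMP9, the cathelicidin gene CAMP, the defensin gene DEFA3 and the chitinase-like gene CHI3L1. Of the 20382 genes tested, 5.49% were called higher and 3.21% lower, 8.7% in either direction (edgeR quasi-likelihood test, Benjamini-Hochberg adjusted p under 0.05). At an unadjusted p under 0.05 in edgeR, 7 of the 10 were higher and 0 lower, where 11.4% and 9.37% of all genes tested were. DESeq2 also called 4 higher and 0 lower, and over all genes it called 3.8% higher and 1.36% lower. The median log2 fold change was 1.11 over the 10 genes, against -0.01 over all genes tested. The 10 genes were chosen with earlier results of these data known, so these shares and medians are not an independent comparison. All 10 passed the filter on low counts, but CAMP lay above its level of 0.162 CPM only in the ARID1B shRNA libraries, and MMP8 only under hairpin 2. Of the 4 genes called higher, 3 lay above that level in the control. Within a gene, only the gap between the hairpins gave a measure of spread, worth 1 degree of freedom. In edgeR it was combined with a prior worth 14.8 degrees of freedom, drawn from all genes. The p-values and 95% intervals of log2 fold changes therefore rest largely on spread shared over genes. A single control library was taken to vary as the hairpin libraries do. Every p-value rests on variation within these libraries only, which may be technical. Intervals on ratios below are exact 95% intervals that cover counting error only.

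**Figure D1:**
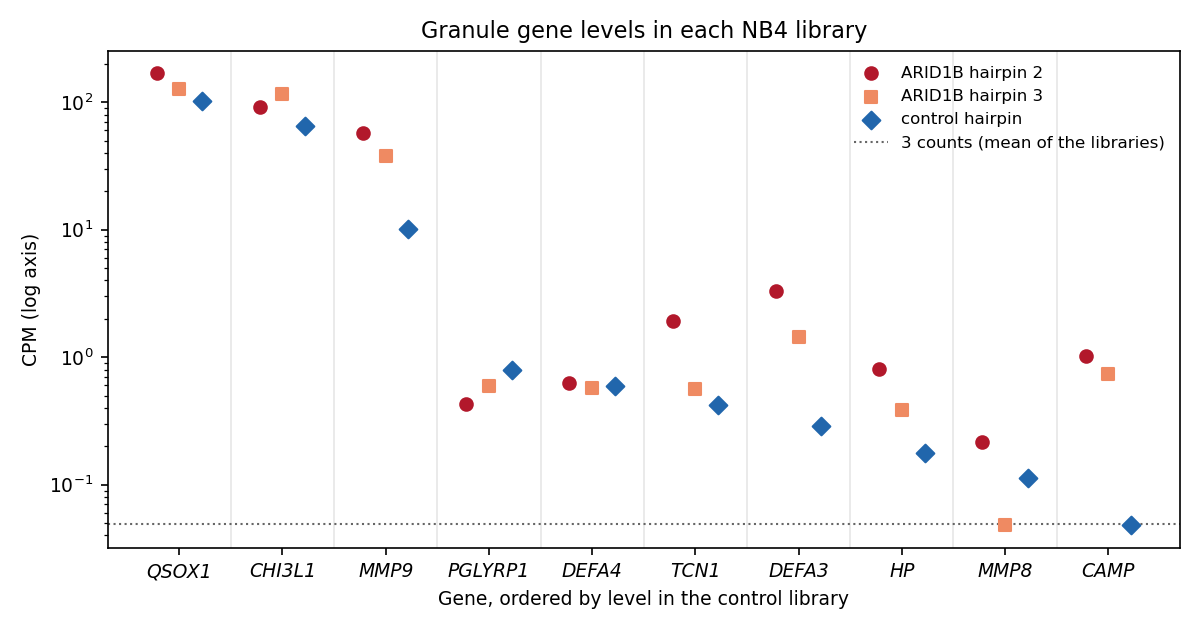
Level of each granule gene in each library, in CPM on a log axis, with genes ordered by their control level. Circles mark hairpin 2, squares hairpin 3 and diamonds the control, and the dotted line marks 3 counts. MMP9 lies at 57.0 and 38.0 CPM under the hairpins and 10.1 CPM in the control, while the 3 DEFA4 values lie between 0.577 and 0.632 CPM.

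MMP9 (ENSG00000100985) encodes gelatinase B, a zinc protease of gelatinase granules that cuts denatured collagen and basement membrane collagen. It had 3430 counts under hairpin 2 and 2369 under hairpin 3, against 627 in the control. In CPM this was 57.0 and 38.0 in the ARID1B shRNA libraries (mean 47.5 ± 13.5, SD, n = 2) and 10.1 in the control library. Both hairpin libraries lay far above the control, and hairpin 2 above hairpin 3. The ratio to control was 5.65 under hairpin 2 (5.19 to 6.16) and 3.76 under hairpin 3 (3.44 to 4.12). In the joint fit MMP9 rose 4.70-fold (log2 2.23 ± 0.21, SE; edgeR adjusted p = 7.0e-06). An antisense gene on the opposite strand, SLC12A5-AS1, shares 18.4% of the exon length of MMP9, and the strand setting of the counting is not given in the sources used here, so reads in the shared stretch cannot be assigned with certainty. SLC12A5-AS1 had 1100 and 839 counts under the hairpins against 403 in the control, and rose by 1.29 ± 0.20 on the log2 scale (edgeR adjusted p = 6.0e-04). The same limit holds for LYZ, MMP25 and CEBPA, described later. Single antisense genes share 34.0%, 35.2% and 25.0% of their respective exon lengths, and a second one shares 18.3% of that of CEBPA. Among the cell type markers counted later, PRG2 and CD68 share 43.0% and 81.7% of their exon lengths with a gene on the same strand.

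MMP8 encodes neutrophil collagenase, which is stored in specific granules and cuts fibrillar collagens. Only 13 counts were found under hairpin 2 and 3 under hairpin 3, against 7 in the control. The hairpins lay on opposite sides of the control, and the counting intervals of both ratios (0.711 to 5.68 for hairpin 2 and 0.0712 to 1.87 for hairpin 3) include no difference. MMP8 did not pass the test (log2 0.21, 95% interval -1.43 to 1.85; edgeR adjusted p = 0.92). At these counts a change of several fold in either direction was not detectable.

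CAMP (ENSG00000164047) encodes the cathelicidin hCAP18, a specific granule protein that proteinase 3 cuts to release the antimicrobial peptide LL-37. CAMP had 62 counts under hairpin 2 and 46 under hairpin 3, against 3 in the control. The control library was therefore at the detection floor, which a count of 0 would put at up to 3 counts or 0.0483 CPM. Levels were 1.03 and 0.738 CPM in the ARID1B shRNA libraries and 0.0483 CPM in the control. The ratio was 21.3 under hairpin 2, with a wide counting interval of 6.97 to 106, and 15.3 under hairpin 3 (4.91 to 76.8). CAMP passed the test upward (edgeR adjusted p = 0.0015), but it passed the filter on low counts only through the ARID1B shRNA libraries. The protease of this pathway, PRTN3, rose by 2.11 ± 0.15 on the log2 scale (edgeR adjusted p = 7.5e-07), and the LL-37 receptor FPR2 by 2.72 ± 0.55 (adjusted p = 0.0049). P2RX7, listed with FPR2 among the receptors and partners, had 2290 and 2552 counts under hairpins 2 and 3, against 2240 in the control. P2RX7 did not pass the test (log2 0.13 ± 0.14, edgeR adjusted p = 0.656).

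The alpha defensin genes DEFA3 and DEFA4 gave different values. DEFA3, which encodes neutrophil defensin 3, a small pore-forming antimicrobial peptide, had 200 counts under hairpin 2 and 89 under hairpin 3, against 18 in the control. The ratio was 11.5 under hairpin 2 (7.08 to 19.8) and 4.92 under hairpin 3 (2.94 to 8.69). Both hairpin libraries lay above the control, and hairpin 3 stood at 0.429 of hairpin 2 (0.331 to 0.554). DEFA3 rose 8.12-fold in the fit (log2 3.02 ± 0.56; edgeR adjusted p = 0.0023), but under robust empirical Bayes the call failed in edgeR, with an adjusted p of 0.124 (range over the alternatives 6.3e-05 to 0.47). Near-identical copies of the gene, DEFA1B with 21, 8 and 3 counts and DEFA1 with 2, 1 and 0 (hairpin 2, hairpin 3 and control), make the split of reads between them uncertain. Summing the 3 copies gave 223 and 98 counts under the hairpins against 21 in the control, and a log2 fold change of 2.95 ± 0.54 (edgeR adjusted p = 0.0023). DEFA4, the gene of neutrophil defensin 4, had 38 and 36 counts under the hairpins and 37 in the control. Its log2 fold change was 0.02 with a 95% interval of -0.87 to 0.91 (edgeR adjusted p = 0.987), so a 2-fold change in either direction lies outside that interval. DESeq2 gave DEFA4 a log2 fold change of 0.04 ± 0.85 (SE), a spread too wide to leave out a 2-fold change. The difference between DEFA3 and DEFA4 was not tested.

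CHI3L1 (ENSG00000133048) encodes YKL-40, a chitin-binding lectin without chitinase activity that is stored in specific granules and is also made by macrophages. It was the most abundant of the 10 genes per exon length in every library, at 27.0 and 33.9 CPM per kb under hairpins 2 and 3 and 19.1 CPM per kb in the control. Its counts were 5528 and 7212 under the hairpins, against 4050 in the control. CHI3L1 rose by a smaller factor than the other 3 called genes, 1.59-fold (log2 0.67 ± 0.15; edgeR adjusted p = 0.0095). Hairpin 3 lay above hairpin 2 (ratio 1.26, 1.21 to 1.30), the opposite order to MMP9 and DEFA3.

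Windows of 250 bases before the annotated start were read for CAMP, CHI3L1 and TCN1 because CAMP and CHI3L1 rose and because TCN1, described later, differed several-fold between the hairpins. They come from RefSeq (GRCh38.p14), which had entries for 5 of the 10 genes, and they run 5′ to 3′ along the gene. Capitals mark matches, on either strand, to 6 textbook motifs. The letters searched were AGATAA for the GATA factors, TTGCNNAA for C/EBP, GAGGAA for PU.1, TGTGGT for RUNX, AGGTCA for nuclear receptors and TATAAA for the TATA box.
CAMP, chr3:48223245-48223494, plus strand: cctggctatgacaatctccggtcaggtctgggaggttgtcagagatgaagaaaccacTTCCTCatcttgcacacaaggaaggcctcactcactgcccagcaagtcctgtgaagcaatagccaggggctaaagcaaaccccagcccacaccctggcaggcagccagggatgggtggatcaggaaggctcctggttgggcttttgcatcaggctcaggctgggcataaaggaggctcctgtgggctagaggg
CHI3L1, chr1:203186705-203186954, minus strand: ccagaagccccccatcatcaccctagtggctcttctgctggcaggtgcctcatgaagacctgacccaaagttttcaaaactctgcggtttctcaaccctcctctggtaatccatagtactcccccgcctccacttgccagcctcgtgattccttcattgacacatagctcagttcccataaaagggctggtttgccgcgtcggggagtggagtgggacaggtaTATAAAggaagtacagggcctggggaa
TCN1, chr11:59866488-59866737, minus strand: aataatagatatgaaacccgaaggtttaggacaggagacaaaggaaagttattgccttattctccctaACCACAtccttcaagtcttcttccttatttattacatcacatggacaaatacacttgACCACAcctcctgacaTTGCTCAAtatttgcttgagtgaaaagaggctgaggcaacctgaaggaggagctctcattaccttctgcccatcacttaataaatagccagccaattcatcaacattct
The CAMP window held 1 PU.1 match, on the minus strand of the gene, starting 193 bases before the start. The CHI3L1 window held 1 TATA box match that began 27 bases before the start. The TCN1 window held RUNX matches at 182 and 125 bases and a C/EBP match at 109 bases before the start, none overlapping another. The window of MMP8, which did not pass the test, held a C/EBP, a TATA and a PU.1 match at 103, 110 and 226 bases before the start, and that of QSOX1 held none of the 6. Among 35116 RefSeq promoter windows of the same length, 23.6% held the PU.1 letters, 11% the RUNX letters, 10.7% the TATA letters and 9.05% the C/EBP letters. No window of these 3 genes, nor those of MMP8 and QSOX1, held the GATA letters, which 9.17% of all windows held, or the nuclear receptor letters, which 12.1% held. These are matches of letters and were not tested against the expression values.

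HP, TCN1 and QSOX1 were higher under both hairpins but did not pass the test. HP encodes haptoglobin, which binds free haemoglobin and is released from specific granules. It had 49 counts under hairpin 2 and 24 under hairpin 3, against 11 in the control, and both ratios had intervals above 1 (2.36 to 9.81 and 1.02 to 4.91). Its log2 fold change was 1.74 ± 0.63 (edgeR adjusted p = 0.107). The near-identical gene HPR, which encodes a haptoglobin-related protein, had at most 1 count in any library.

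TCN1, the gene of haptocorrin, a vitamin B12 binding protein of specific granules, had 116 counts under hairpin 2 but 35 under hairpin 3, against 26 in the control. Hairpin 2 alone stood clear of the control (ratio 4.61, 2.99 to 7.35), while the interval under hairpin 3 included no difference (1.34, 0.784 to 2.32). Hairpin 3 stood at 0.291 of hairpin 2 (0.193 to 0.428). The fit gave a log2 fold change of 1.56 ± 0.61 (edgeR adjusted p = 0.144).

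QSOX1 encodes a sulfhydryl oxidase that forms disulfide bonds in secreted proteins and is made by many cell types besides neutrophils. It had 10120 and 7868 counts under the hairpins, against 6331 in the control, or 168 and 126 CPM against 102 CPM. The log2 fold change of 0.53 ± 0.16 lay just outside the threshold (edgeR adjusted p = 0.0508). The call passed with size factors by the RLE method (adjusted p = 0.0377), with library size alone (0.0283) and with the legacy quasi-likelihood fit (0.0271), all in edgeR; over all alternatives p ranged from 0.0271 to 0.486.

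PGLYRP1 was the one gene below the control under both hairpins. It encodes a peptidoglycan recognition protein that binds bacterial cell walls and is stored in specific granules. It had 26 counts under hairpin 2 and 37 under hairpin 3, against 49 in the control. The interval of the ratio left out no difference under hairpin 2 (0.548, 0.327 to 0.899) and included it under hairpin 3 (0.752, 0.477 to 1.18). PGLYRP1 did not pass the test (log2 -0.62 ± 0.41; edgeR adjusted p = 0.445).

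**Figure D2:**
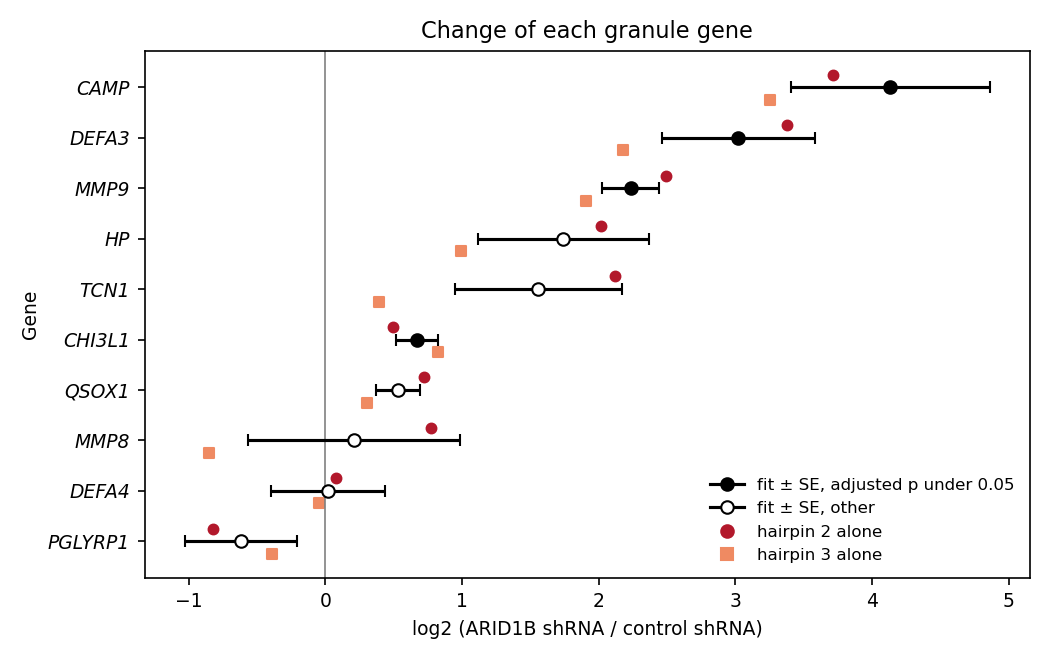
Change of each granule gene, as log2 of ARID1B shRNA over control shRNA. Black points with bars are the joint fit ± SE, filled where the adjusted p was under 0.05; circles in red are hairpin 2 alone and squares in orange hairpin 3 alone, on log2 CPM with a prior count of 2. CAMP, DEFA3 and MMP9 lie at 4.14, 3.02 and 2.23, and PGLYRP1 at -0.62 is the lowest. The prior count draws the single-hairpin values of CAMP toward 0.

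Levels per exon length spread the 10 genes over a wide range. In the control the order was CHI3L1 at 19.1, QSOX1 at 10.9 and MMP9 at 4.32 CPM per kb, then PGLYRP1 at 1.10, DEFA4 at 0.966, DEFA3 at 0.582, TCN1 at 0.264, CAMP at 0.0648 and MMP8 and HP both at 0.0328. Under hairpin 2 MMP9 stood at 24.4 CPM per kb, between CHI3L1 at 27.0 and QSOX1 at 18.1, and DEFA3 followed at 6.68. Under hairpin 3 MMP9 (16.3) also stood above QSOX1 (13.6). Of the 10 genes, 3 (CHI3L1, QSOX1 and MMP9) had at least 3 CPM per kb in every library. PGLYRP1 and DEFA4 were neighbours in the control with 49 and 37 counts, and MMP8 and HP with 7 and 11, too few to set an order. For comparison, MPO of the azurophil granules stood at 3118 CPM per kb in the control. Lengths are the union of annotated exons, which for HP includes long alternative exons and lowers its value.

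The hairpins differed in how far they carried these genes. In 8 of the 10 genes hairpin 2 lay above hairpin 3, against 49.8% of all genes tested, and the exceptions were CHI3L1 and PGLYRP1. In 7 genes, CHI3L1 in the opposite direction to the other 6, the counting interval of the hairpin 3 to hairpin 2 ratio left out 1, as it did in 42% of all genes tested. At least a 2-fold rise over the control was seen in 5 genes under hairpin 2 (5.47% of all genes tested), in 3 under hairpin 3 (3.76%) and in the same 3 genes, MMP9, CAMP and DEFA3, under both (3%). The 2-fold counts all rest on the same control library, and none of the counts in this paragraph carries a test. ARID1B itself differed little between the hairpin libraries (hairpin 3 to hairpin 2 ratio 0.976, 0.919 to 1.04).

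Other granule genes were described from lists of related genes. For every list below, the shares over all genes tested were 5.49% higher and 3.21% lower in edgeR, with a median of -0.01. They were 3.8% and 1.36% in DESeq2, and edgeR's robust fit called 894 higher and 580 lower of 20382 genes. Of 18 other specific granule genes 10 were tested, 5 rose and 2 fell, with a median log2 fold change of 0.78. ORM1, an acute phase plasma protein also stored in these granules, rose by 2.65 ± 0.63 (64 and 36 counts under the hairpins, against 8), but it passed the filter on low counts only through those libraries. Lysozyme (LYZ) rose by 1.86 ± 0.28 and the integrin subunit ITGAM by 1.67 ± 0.31, while the transporter ABCA13 fell by 2.56 (SE 0.33). PTX3, a soluble pattern recognition protein named here after its values were seen, also fell (-1.58 ± 0.27). The remaining 8, among them the defining specific granule genes LTF, LCN2, CEACAM8, CRISP3 and OLFM4, had at most 6 counts in any library. DESeq2 called 1 of the list higher and 2 lower and edgeR's robust fit 2 and 2, and LYZ, ITGAM and ORM1 were lost in DESeq2 (adjusted p = 0.236, 0.321 and 0.0909).

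Of 9 other gelatinase granule and secretory vesicle genes 7 were tested, 5 rose and 0 fell (edgeR; 6 and 0 at an unadjusted p under 0.05; 4 and 0 in DESeq2), with a median of 1.52. The formyl peptide receptors FPR1 (3.40 ± 0.77) and FPR2 (2.72 ± 0.55), the metalloprotease ADAM8 (1.58 ± 0.18) and ficolin 1 (FCN1, 1.52 ± 0.26) led the list. FPR1, with 5 control counts, passed the filter on low counts only through the ARID1B shRNA libraries. Of 15 azurophil granule genes 14 were tested, 7 rose and 1 fell, with a median of 0.63. The bactericidal protein BPI rose by 2.84 ± 0.22, PRTN3 as given above and the ribonuclease RNASE2, also an eosinophil protein, by 1.38 ± 0.15, while cathepsin G (CTSG) fell by 1.81 (SE 0.14). The FCN1 call failed in DESeq2 (adjusted p = 0.31) and in edgeR's robust fit (0.367).

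Genes around the metalloproteinases were set beside MMP9. The tissue inhibitors TIMP1 and TIMP2, which block MMP9 and other metalloproteinases, rose by 0.90 ± 0.14 and 1.20 ± 0.16 on the log2 scale (edgeR adjusted p = 4.9e-04 and 1.3e-04). They were the called genes among 4 tested of 6 inhibitors, none of which fell (0 lower also at an unadjusted p under 0.05 and in DESeq2). TIMP1 had 4325 and 4021 counts under the hairpins, against 2264 in the control. Of 17 other metalloproteinase genes 8 were tested and 0 were called in edgeR (1 higher and 1 lower at an unadjusted p under 0.05, and 0 in DESeq2). The most counted of them, the membrane-bound MMP17 and MMP25, had log2 fold changes of 0.37 ± 0.17 and -0.41 ± 0.25. MMP12 and MMP28 were not analysed here.

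Receptors, relatives and partners of the granule proteins numbered 23, of which 13 were tested and 5 rose, with 0 lower (edgeR; 8 and 0 at an unadjusted p under 0.05; 4 and 0 in DESeq2). Beside FPR2 these were the heparan sulfate proteoglycan SDC1 (1.51 ± 0.30), transcobalamin 2 (TCN2, 0.91 ± 0.22), the disulfide isomerase P4HB (0.71 ± 0.17) and the transcobalamin receptor CD320 (0.62 ± 0.15). TCN2 was lost with DESeq2 (adjusted p = 0.0626). CD163, the macrophage receptor for haptoglobin with haemoglobin, had 14 and 4 counts under the hairpins and 0 in the control. TREM1, a receptor for PGLYRP1, had 57 and 48 counts against 58, and IL13RA2, a receptor for CHI3L1, had 0 counts in each library.

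Of 18 regulators of granule genes 17 were tested, 5 rose and 1 fell, with a median of 0.10. CEBPE, the factor of the specific granule programme, had 4408 and 4668 counts under the hairpins and 3615 in the control and did not pass (0.35 ± 0.13; edgeR adjusted p = 0.121). Its relatives CEBPA (0.74 ± 0.14) and CEBPB (0.71 ± 0.17) rose, as did GATA1 (3.70 ± 0.37), GATA2 (1.38 ± 0.14) and IRF8 (1.05 ± 0.22). GFI1, a repressor that acts in neutrophil development, fell by 0.44 (SE 0.13). In edgeR's robust fit the calls of CEBPB and GATA1 failed (adjusted p = 0.0755 and 0.0958), as did that of GFI1 in DESeq2 (0.077). The vitamin D receptor VDR, which activates CAMP in human cells, had 0.10 ± 0.13 (edgeR adjusted p = 0.746).

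**Figure D3:**
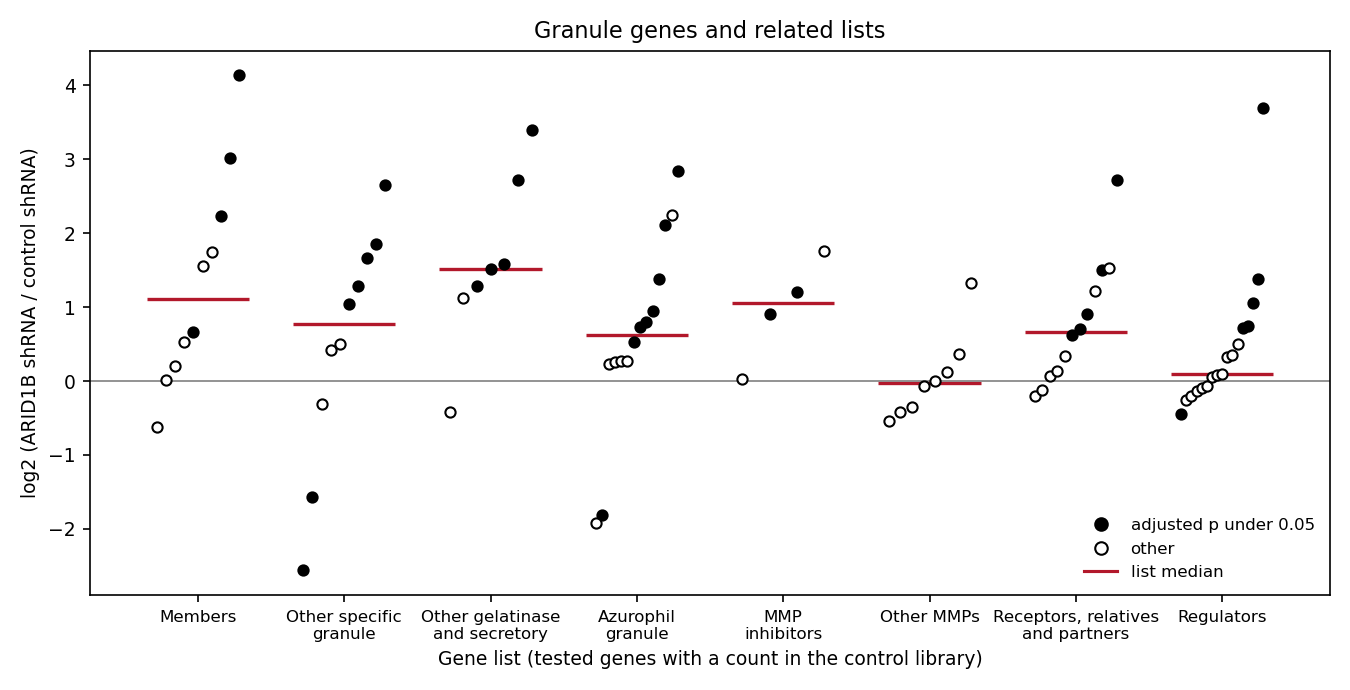
Log2 of ARID1B shRNA over control shRNA for the 10 granule genes (left) and the related lists, from the joint fit. Each point is a gene that was tested and had a count in the control, filled where the adjusted p was under 0.05, and bars in red are list medians. The medians of the other gelatinase and secretory list and of the 10 granule genes lie at 1.52 and 1.11, and that of the other metalloproteinases at -0.03.

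Markers of other cell types moved in the same libraries. Over all genes tested, edgeR called 5.49% higher and 3.21% lower, and its robust fit called 894 and 580 of 20382 genes. Of 13 eosinophil, basophil and mast cell markers 12 were tested and 9 rose (5 in edgeR's robust fit). Of the 9, CLC and PRG3 passed the filter on low counts only through the ARID1B shRNA libraries. The summed level of all 13 markers was 2151 CPM under hairpin 2 and 1134 CPM under hairpin 3, against 93.8 CPM in the control. PRG2 alone stood at 1260 and 709 CPM under the hairpins against 66.7 CPM, while FCER1A had 0 counts throughout. Among 8 monocyte and macrophage markers 3 of 6 tested rose (1, CD68, in the robust fit). The 3 include FCN1, which was also counted above among the gelatinase granule and secretory vesicle genes. The summed level of the 8 was 74.4 and 51.9 CPM under the hairpins against 32.1 CPM, and CD14 had 16 and 13 counts against 5. CSF1R, of the same list, had 396 and 290 counts under the hairpins against 468 in the control and did not pass (log2 -0.42 ± 0.22; edgeR adjusted p = 0.295). Of 6 mature neutrophil markers 2 could be tested and 1, CXCR2, rose, a call that failed in DESeq2 (adjusted p = 0.105) and in the robust fit (0.0931). FCGR3B had 3 and 0 counts against 1, and MME had 0 in each library. Of 6 erythroid and megakaryocyte markers 2 were tested and the platelet integrin ITGA2B rose (3.80 ± 0.45; edgeR adjusted p = 4.7e-05, but 0.436 in the robust fit), while HBA1, PF4 and GP9 had 0 counts throughout. The summed level of that list was 46.0 and 16.9 CPM under the hairpins against 2.48 CPM. Nearly all of it was ITGA2B, at 45.5 and 16.7 CPM against 2.24 CPM. Of 7 T, NK and B cell markers 2 of 5 tested rose, CD3D (1.17 ± 0.20) and NKG7 (0.63 ± 0.19), and MS4A1 had 0 counts. The NKG7 call was lost in DESeq2 (adjusted p = 0.0853) and in the robust fit (0.215). The summed level of the 7 markers was 61.5 and 46.6 CPM under the hairpins against 33.8 CPM. Of 6 epithelial, fibroblast and packaging cell markers 2 of 4 tested fell, COL6A1 (-1.70 ± 0.35) and VIM (-0.48 ± 0.14). The summed level of the 6 was 433 and 432 CPM under the hairpins against 599 CPM. Nearly all of it was VIM, at 414 and 408 CPM against 573 CPM, so the sum says little about the other markers. COL6A1 failed in DESeq2 (adjusted p = 0.098) and VIM in the robust fit (0.0545). The part of these cell types in the granule gene values was not tested.

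The genes whose pair of log2 ratios lay nearest to that of MMP9 were sought among 14399 named genes with a mean of at least 1 CPM, over the 3 libraries. They were CD84, KCTD12, AC008750.1, CD300A and CES1, at distances of 0.112 to 0.183 on the log2 scale. CD84, an adhesion receptor of leukocytes, had 2367 and 1804 counts under the hairpins against 443 in the control. CD300A, an inhibitory receptor of myeloid cells, had 1546 and 1013 against 293.

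**Figure D4:**
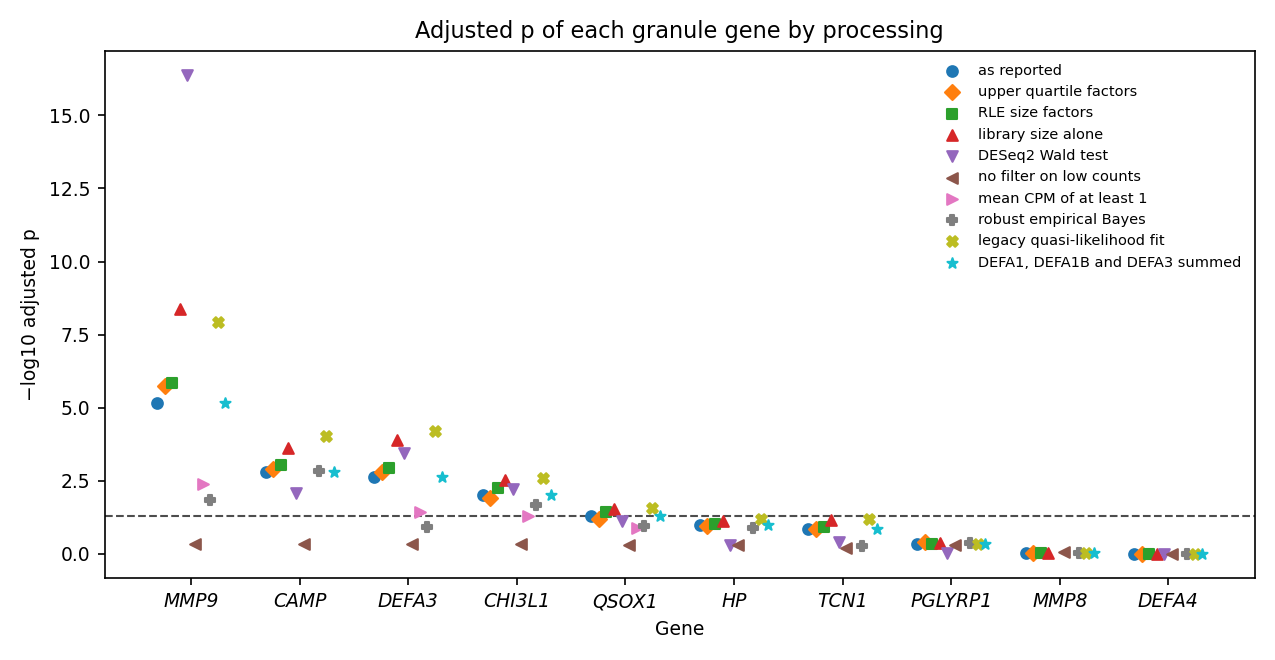
Adjusted p of each granule gene, as −log10, under the reported processing and 9 alternatives, with the dashed line at 0.05 and genes ordered by reported p. MMP9 lies above the line in all settings but the one with no filter on low counts, where its adjusted p was 0.465, and DEFA4, MMP8, PGLYRP1, HP and TCN1 lie below it in all settings plotted.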

How the data were processed

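RNA was sequenced from 2 ARID1B shRNA libraries and 1 control shRNA library. The authors deposited whole-number read counts per Ensembl gene, not normalized; STAR, Cufflinks, featureCounts and hg19 are named per the submitters' processing notes, without roles, and neither annotation nor strand setting is given in the sources used here. GENCODE release 29 named 52338 of 57773 IDs and gave exon lengths; it describes another build, so no expression coordinates are given. Where IDs shared a symbol, the one with most counts kept it.

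Genes were filtered with filterByExpr (minimum count 10, which left 20382), scaled by TMM (factors 0.9903 to 1.0074) and tested in R 4.3.3 with edgeR 4.0.16 (estimateDisp, glmQLFit with legacy = FALSE, glmQLFTest, two-sided), adjusted by Benjamini-Hochberg over all genes, threshold 0.05. Standard errors are the log2 fold change over the root of F; fits used 1 residual and 14.8 prior degrees of freedom. Steps were tested on simulated data. Alternatives included DESeq2 1.42.0. Single-hairpin values used a prior count of 2 and no test. Of 158 listed symbols 155 had a row. Named genes are the 10 granule genes, up to 4 called members of each related list with the largest change (or the 2 most counted where fewer than 2 were called), and the 5 genes nearest MMP9. Other named genes (CEBPB, CEBPE, GFI1, VDR, CD320, CD163, TREM1, IL13RA2, P2RX7, PTX3, the specific granule genes with at most 6 counts, the single markers of cell types, and overlapping genes or copies) were chosen after their values were seen. Members, lists and rule were chosen with earlier results of these data known.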

Additional observations from a re-analysis of the deposited data

How the results depend on the processing

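Over all genes, 1119 were called higher and 655 lower. DESeq2 called 277 lower; a mean CPM of at least 1 gave 622 higher and 338 lower. Without a filter on low counts edgeR called 0 genes in either direction (3218 at an unadjusted p under 0.05, against 4226 with the filter), so 0 granule genes and 0 genes of the related lists (28 higher and 4 lower with the filter) passed there. Higher genes made up 63.1% of calls, against 73.7% in DESeq2 and 53.8% for upper quartile scaling. Between 3 and 5 granule genes were called higher, and none lower, under the other 8 alternatives. MMP9 and CHI3L1 passed in all 8, though CHI3L1 narrowly with a mean CPM of at least 1 (adjusted p = 0.0494). CAMP could not be tested with that filter and passed in the other 7. DEFA4 turned to -0.028 with upper quartile factors. The causes were not tested. Leaving out a hairpin leaves 1 library against 1 and no test: log2 values then ran from 1.91 to 2.50 for MMP9, 3.88 to 4.36 for CAMP, 2.29 to 3.51 for DEFA3, 0.50 to 0.83 for CHI3L1, 0.42 to 2.20 for TCN1, 1.11 to 2.19 for HP, 0.31 to 0.72 for QSOX1, -0.05 to 0.08 for DEFA4, -0.86 to -0.41 for PGLYRP1 and -1.19 to 0.93 for MMP8. No paired analysis was possible because there was 1 control library and the labels give no pairing. Depth limits MMP8, HP and CAMP, which had at most 11 counts in the control.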
